A study of Mus musculus with 46 samples.

Results

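Fgfr4, Cldn2, Msln, Man2a1, Kank4 and Sec14l3 had lower ribosome-bound RNA in AgRP neurons of fasted mice than of fed mice. They are 6 of the 31854 genes in the count table. They were picked by name from the fasted-against-fed comparison of the AgRP libraries, so their lower level in fasted libraries is given as a description and no support is drawn from it. Ordered by the size of the decrease among the 145 genes called lower with fasting, Cldn2 stood at place 1, Fgfr4 at 3, Sec14l3 at 4, Msln at 5, Kank4 at 77 and Man2a1 at 91. A gene was called when the false discovery rate (the adjusted p of edgeR's quasi-likelihood test) was under 0.05 and the log2 fold change was over 0.5 in either direction.

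AgRP neurons of the hypothalamic arcuate nucleus (ARC) release agouti-related peptide and neuropeptide Y and drive feeding. They become more active when food is withheld. Leptin, a hormone made by fat cells, falls in blood during a fast and acts on these neurons through the leptin receptor. Neighbouring POMC neurons make the melanocortin precursor and reduce food intake.

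Ribosome-bound RNA was collected by translating ribosome affinity purification (TRAP) from male C57BL/6J mice of 6 to 11 weeks. The mice carried the NuTRAP transgene, which tags ribosomes and nuclei in cells that express Cre, together with AgRP-IRES-Cre or POMC-IRES-Cre. Cre was therefore driven from the Agrp or the Pomc gene, and any cell that had expressed that gene could carry the tag. Fed mice had chow ad libitum and fasted mice were without food for 18 to 20 h, and both received vehicle (PBS). Leptin-treated mice were fasted in the same way and received leptin at 5 mg/kg i.p. Tissue was taken 3 h after the injection. The AgRP line gave 3 fed, 4 fasted and 4 leptin-treated RNA libraries and the POMC line gave 2 of each, and each library pooled 4 ARCs. Chromatin accessibility was measured by ATAC-seq in sorted nuclei of NuTRAP mice with AgRP-IRES-Cre, in 2 libraries for each of the 3 states, each from 4 pooled ARCs. A second ATAC-seq set compared AgRP-positive with AgRP-negative ARC nuclei in 2 libraries each, for which the labels give no feeding state. Positive and negative nuclei came from the same pooled samples.

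The RNA libraries held 25.6 to 54.5 mega-counts (M), the ATAC-seq libraries of the 3 states held 8.26 to 17.2 M and those of the nuclear gates held 8.69 to 11.2 M. The summed level of 7 AgRP neuron markers was 1723 to 6650 CPM (counts per mega-count of the library) in AgRP libraries and 155 to 236 in POMC libraries, so the libraries matched their labelled line. The 3 AgRP libraries numbered 4 stood apart, with Slc1a2, a glutamate transporter of astrocytes, between 20152 and 25852 CPM against 2378 to 3844 in the other 8. The POMC libraries numbered 2 did likewise, with 23293 to 26934 CPM against 5210 to 6196. Results that changed without the AgRP libraries numbered 4 are given beside those results. In these bulk samples, fewer cells expressing a gene and less RNA per cell cannot be told apart.

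The 6 genes lie on 5 chromosomes of the mouse GRCm38 (mm10) assembly. Fgfr4 is at chr13:55152640-55168759 on the plus strand, Cldn2 at chrX:139800828-139811386 on the plus strand and Sec14l3 at chr11:4064841-4077736 on the plus strand. Man2a1 is at chr17:64600736-64755110 on the plus strand, Msln at chr17:25748613-25754378 on the minus strand and Kank4 at chr4:98754898-98817537 on the minus strand. One accessible region near each of 5 genes is printed here because the chromatin results turn on it. The central 300 bases of each peak are read from the plus strand of the RefSeq GRCm38.p6 genome, and capitals mark letters that match a searched motif. The Cldn2 region (chrX:139859844-139860143, an intron of Morc4), the Man2a1 region (chr17:64643536-64643835, an intron of Man2a1) and the Kank4 region (chr4:98772119-98772418, an intron of Kank4) lost accessibility with fasting. The Msln region (chr17:25702805-25703104, between genes) and the Sec14l3 region (chr11:4035530-4035829, an intron of Sec14l4) gained it.
Cldn2 at 59.2 kb: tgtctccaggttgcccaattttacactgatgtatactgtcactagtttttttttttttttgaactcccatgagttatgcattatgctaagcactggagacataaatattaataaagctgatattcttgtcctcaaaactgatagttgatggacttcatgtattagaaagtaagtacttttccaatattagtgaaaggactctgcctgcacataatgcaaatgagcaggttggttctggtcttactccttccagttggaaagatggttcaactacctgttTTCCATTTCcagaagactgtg
Msln at 51.4 kb: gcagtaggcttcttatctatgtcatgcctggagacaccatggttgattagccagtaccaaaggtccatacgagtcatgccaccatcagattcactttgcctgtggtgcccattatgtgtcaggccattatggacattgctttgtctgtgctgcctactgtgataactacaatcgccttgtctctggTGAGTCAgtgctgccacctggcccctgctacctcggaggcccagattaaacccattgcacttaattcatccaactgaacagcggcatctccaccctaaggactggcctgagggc
Man2a1 at 43.0 kb: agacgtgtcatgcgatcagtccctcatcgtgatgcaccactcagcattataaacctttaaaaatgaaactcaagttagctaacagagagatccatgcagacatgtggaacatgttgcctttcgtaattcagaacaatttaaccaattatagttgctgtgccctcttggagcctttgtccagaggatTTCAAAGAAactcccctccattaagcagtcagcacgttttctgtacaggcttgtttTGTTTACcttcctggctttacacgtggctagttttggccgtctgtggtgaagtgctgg
Kank4 at 45.3 kb: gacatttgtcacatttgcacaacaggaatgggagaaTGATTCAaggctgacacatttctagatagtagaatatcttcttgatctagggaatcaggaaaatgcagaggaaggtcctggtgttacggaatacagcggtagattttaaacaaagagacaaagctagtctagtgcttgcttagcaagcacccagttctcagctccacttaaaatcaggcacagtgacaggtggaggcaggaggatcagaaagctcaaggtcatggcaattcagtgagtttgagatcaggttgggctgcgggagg
Sec14l3 at -29.2 kb: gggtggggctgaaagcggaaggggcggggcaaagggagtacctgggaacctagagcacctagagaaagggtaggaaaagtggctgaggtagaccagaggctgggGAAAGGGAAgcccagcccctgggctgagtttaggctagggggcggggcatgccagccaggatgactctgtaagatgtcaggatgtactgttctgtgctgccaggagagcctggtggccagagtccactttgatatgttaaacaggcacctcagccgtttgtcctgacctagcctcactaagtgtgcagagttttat
Distances run from the gene's start site to the peak's midpoint, and positive values are downstream. Capitals mark a GAAANNGAA match (an IRF-type site) in the Cldn2 region, there on the opposite strand, and in the Sec14l3 region. In the Man2a1 region they mark a TTCNNNGAA match (a STAT site) and then a TGTTTAC match (a FoxO site), and in the Msln and Kank4 regions a TGANTCA match (an AP-1 site).

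Leptin-treated libraries differed from fasted ones for 3 of the 6 genes. Fgfr4, Cldn2 and Man2a1 were higher in leptin-treated than in fasted AgRP libraries, whereas Msln, Kank4 and Sec14l3 stayed near their fasted level and had no call. In the fasted-against-fed contrast all 6 were called lower, where 1.08% of the 13401 genes tested were, and since that contrast chose them nothing is read from the count. With leptin against fasted, 3 of the 6 were called higher, where 1.19% of all genes were. One of them, Cldn2, had a fasted mean of 0.498 CPM, under the filter of 1 CPM. No support is drawn from its call. None was called lower by edgeR or DESeq2, where edgeR called 0.604% of all genes lower, and the smallest unadjusted p of the other 3 genes was 0.534. Against fed libraries, 3 of the 6 were lower after leptin (Msln, Kank4 and Sec14l3), where 1.7% of all genes were, and 1 was higher (Man2a1), where 3.7% were. Both leptin contrasts share the fasted or the fed libraries with the choice of genes, so a low fasted level or a high fed level enters them. Of all 145 genes called lower with fasting, 17 were called higher with leptin and 94 were still lower than in fed libraries, and their median leptin log2 fold change was 0.05. Leptin-treated levels were not compared in the contrast that chose the genes, but AgRP leptin-treated libraries entered its filter and its estimate of spread. Among leptin-treated libraries, 2 of the 6 genes were called higher in AgRP than in POMC libraries (Fgfr4 and Man2a1), where 6.33% of the 13435 genes tested were. Msln was the 1 gene of the 6 called lower, where 4.67% of all genes were. Fgfr4 passed the filter through its AgRP libraries, since its POMC means were 0.357 (fed), 0.402 (fasted) and 0.620 CPM (leptin-treated). No support is drawn from its call.

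**Figure D1:**
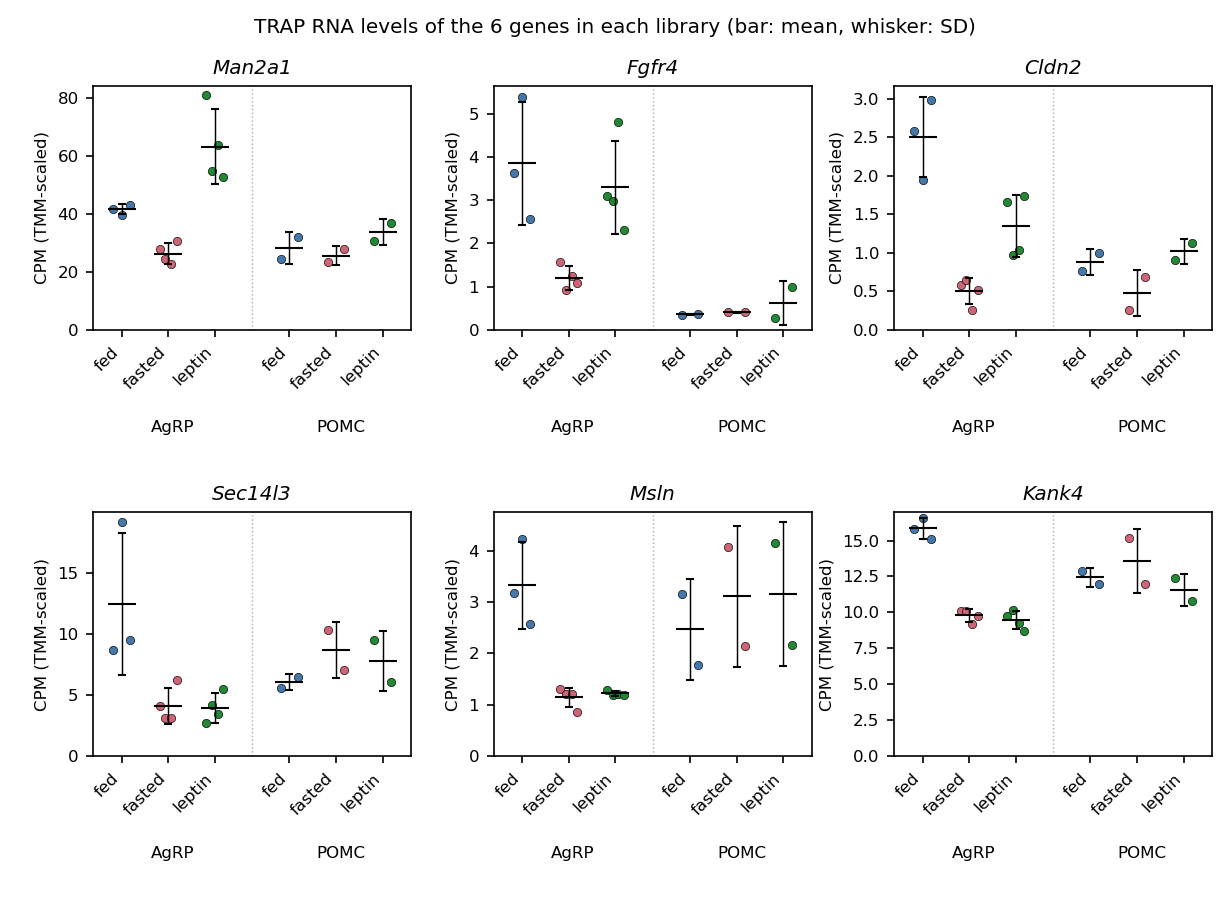
Level of each gene (CPM scaled by trimmed mean of M values, TMM, vertical axis starting at 0) in every AgRP and POMC library, grouped by fed, fasted and leptin-treated state on the horizontal axis. Points are libraries, bars are group means and whiskers are SD, and the 4 fasted AgRP points lie under all 3 fed points for each of the 6 genes, while the leptin points of Man2a1, Fgfr4 and Cldn2 lie over the fasted ones.

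In POMC libraries 4 of the 6 genes passed the filter of a mean over 1 CPM, and Fgfr4 and Cldn2 did not. None of the 4 was called by edgeR in either contrast, where 0% of the 13412 genes tested were called with fasting or with leptin, and DESeq2 called none of the 4 either. Unadjusted p was under 0.05 for none of the 4 genes, and over all genes it was under 0.05 for 132 higher and 141 lower with fasting and for 114 higher and 37 lower with leptin. The difference between the fasting effects in the 2 lines was not tested.

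Means of the 2 lines were closest in the fasted state for Man2a1 (AgRP over POMC 1.03) and Cldn2 (1.05), where the libraries overlapped, against ratios of 1.47 and 2.84 in the fed state, where they did not. For Sec14l3, Msln and Kank4 the AgRP libraries were on average above POMC libraries when fed (ratios of 2.06, 1.35 and 1.27, with overlap for Msln) and below them without overlap when fasted (0.475, 0.368 and 0.721) or leptin-treated (0.507, 0.387 and 0.816). Fgfr4 was higher in AgRP libraries in all 3 states, with ratios of 10.8, 3.00 and 5.33. The fed and fasted ratios are descriptions, since those libraries chose the genes.

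Fgfr4 encodes a receptor tyrosine kinase for fibroblast growth factors, among them endocrine ones that also need a klotho coreceptor. Its level was 3.63, 5.39 and 2.57 CPM in fed AgRP libraries, 1.57, 0.930, 1.25 and 1.07 in fasted ones and 3.11, 2.98, 4.83 and 2.30 in leptin-treated ones. Every fasted library was below every fed library and every leptin-treated library, and the fed and leptin-treated libraries overlapped. The mean fell from 3.86 ± 1.43 CPM (SD, n = 3) to 1.21 ± 0.275 (n = 4) and stood at 3.30 ± 1.07 (n = 4) after leptin. Fasted levels were 3.22-fold lower than fed ones (log2 fold change -1.68, SE 0.30). Leptin-treated levels were 2.76-fold higher than fasted ones (log2 fold change 1.46, SE 0.28, adjusted p = 0.0206) and had no call against fed (log2 fold change -0.22, adjusted p = 0.745). The leptin call was lost when fasted library 2 or 3 or leptin library 1 or 3 was left out, with adjusted p between 0.0529 and 0.0725. In POMC libraries Fgfr4 had 9 to 39 counts, or 0.347 and 0.367 CPM in fed, 0.405 and 0.399 in fasted and 0.261 and 0.979 in leptin-treated ones. Among leptin-treated libraries it was 5.24-fold higher in AgRP than in POMC neurons (log2 fold change 2.39, SE 0.46, adjusted p = 0.00364), and all 4 AgRP libraries lay above both POMC libraries. No support is drawn from that call, since only AgRP libraries took the gene past the filter.

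Cldn2 encodes claudin-2, a tight junction protein that forms channels for cations and water between epithelial cells. It was counted at 2.58, 1.94 and 2.98 CPM in fed AgRP libraries, 0.573, 0.639, 0.259 and 0.520 in fasted ones and 1.66, 0.966, 1.04 and 1.73 in leptin-treated ones. The 3 states did not overlap, and leptin-treated libraries lay between the fasted and the fed ones. Fasted libraries held only 12 to 33 reads of it. Their mean was under 1 CPM, so the fed and leptin-treated libraries took the gene past the filter. No support is drawn from its call with leptin. The mean fell from 2.50 ± 0.520 CPM (SD, n = 3) to 0.498 ± 0.167 (n = 4), 4.96-fold by the fit (log2 fold change -2.31, SE 0.32), and was 1.35 ± 0.404 (n = 4) after leptin. The rise with leptin was 2.68-fold (log2 fold change 1.42, SE 0.31, adjusted p = 0.0405). That call was lost, with adjusted p between 0.0528 and 0.128, when any single fasted library or leptin library 1, 3 or 4 was left out, and it was also lost without the 3 libraries numbered 4 (log2 fold change 1.29, adjusted p = 0.104). Leptin-treated levels were 1.85-fold lower than fed ones (log2 fold change -0.89, adjusted p = 0.0996), which was called with the replicate number as a block (log2 fold change -0.87, adjusted p = 0.0118). In POMC libraries the values were 0.758 and 1.00 CPM in fed, 0.260 and 0.689 in fasted and 0.900 and 1.13 in leptin-treated ones. Both fasted POMC libraries lay below the others, on 9 and 19 counts against 35 and 49 in fed ones, under the filter. With no filter on low counts all 6 genes were tested in POMC libraries, and none was called with fasting or leptin. Among leptin-treated libraries AgRP and POMC neurons overlapped (log2 fold change 0.39, adjusted p = 0.498).

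Msln encodes mesothelin, a lipid-anchored surface glycoprotein known from the lining cells of body cavities. It was at 3.17, 4.23 and 2.57 CPM in fed AgRP libraries and at 1.30, 1.20, 1.21 and 0.867 in fasted ones. Leptin-treated libraries had 1.29, 1.19, 1.20 and 1.20 CPM, within the fasted range and below every fed library. The fitted decrease with fasting was 2.89-fold (log2 fold change -1.53, SE 0.19). The leptin-against-fasted difference was 0.09 on the log2 scale, with a 95% interval of -0.31 to 0.48. Against fed libraries leptin-treated ones were 2.72-fold lower (log2 fold change -1.44, SE 0.18, adjusted p = 0.00148). In POMC libraries Msln was at 3.16 and 1.78 CPM in fed, 4.08 and 2.14 in fasted and 4.15 and 2.16 in leptin-treated ones, where the library numbered 1 was the higher in each state and the states overlapped. The fasting difference there was 0.34 (95% interval -0.92 to 1.61), against an interval of -1.94 to -1.12 in AgRP libraries, whose fasting contrast chose the gene. Among leptin-treated libraries Msln was 2.58-fold lower in AgRP than in POMC neurons (log2 fold change -1.37, SE 0.31, adjusted p = 0.0103), a call lost without POMC leptin library 1 (log2 fold change -0.81, adjusted p = 0.167).

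Man2a1 encodes Golgi alpha-mannosidase II, which trims mannose from N-linked glycans on their way to complex forms. Per length it was the most abundant of the 6 genes in fed AgRP libraries, at 6.82 RPKM (counts scaled by library size and gene length), above Kank4 at 3.30, Sec14l3 at 3.11, Msln at 1.55, Fgfr4 at 1.18 and Cldn2 at 0.815. Its level was 41.7, 39.7 and 43.1 CPM in fed, 27.8, 24.3, 22.5 and 30.5 in fasted and 81.1, 54.8, 63.6 and 52.6 in leptin-treated AgRP libraries. The 3 states did not overlap, and the leptin-treated libraries were the highest. The mean fell from 41.5 ± 1.75 CPM (SD, n = 3) to 26.3 ± 3.58 (n = 4), 1.57-fold by the fit (log2 fold change -0.65, SE 0.15). That fasting call was lost, with adjusted p between 0.0675 and 0.101, when fasted library 1, 2 or 3 or any fed library was left out. After leptin it was 63.0 ± 13.0 CPM (n = 4), 2.39-fold above fasted (log2 fold change 1.26, SE 0.14, adjusted p = 0.000744), and this call was kept when any single library was left out. It was also 1.53-fold above fed (log2 fold change 0.61, SE 0.15, adjusted p = 0.0316), a call lost with adjusted p between 0.0548 and 0.104 when any fed library or leptin library 1 or 3 was left out. In POMC libraries Man2a1 was at 24.3 and 32.1 CPM in fed, 23.2 and 27.8 in fasted and 30.4 and 36.9 in leptin-treated ones. Both leptin-treated POMC libraries lay above both fasted ones, with a log2 fold change of 0.39 (95% interval -0.09 to 0.88) and no call. Leptin-treated AgRP libraries were 1.87-fold above leptin-treated POMC libraries (log2 fold change 0.90, SE 0.18, adjusted p = 0.00535), a call lost without POMC leptin library 1 (log2 fold change 0.78, adjusted p = 0.0685).

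Kank4 encodes a member of the KANK family of adaptor proteins, which link talin at cell adhesions to the actin and microtubule cytoskeleton. Its 3 fed AgRP libraries held 15.8, 16.6 and 15.1 CPM, its fasted ones 10.1, 10.1, 9.19 and 9.74 and its leptin-treated ones 9.72, 10.1, 9.27 and 8.67. Libraries of a state lay close together, and the fasted and leptin-treated ones overlapped while the fed ones stood above both. The mean fell from 15.8 ± 0.720 CPM (SD, n = 3) to 9.78 ± 0.429 (n = 4), 1.61-fold by the fit (log2 fold change -0.69, SE 0.08). The leptin-against-fasted difference was -0.05 on the log2 scale (95% interval -0.23 to 0.12), the narrowest interval of the 6 genes in that contrast. Leptin-treated libraries were 1.67-fold below fed ones (log2 fold change -0.74, SE 0.08, adjusted p = 0.000968). POMC libraries held 12.9 and 12.0 CPM in fed, 15.2 and 12.0 in fasted and 12.4 and 10.8 in leptin-treated state, which overlapped. The fasting difference there was 0.13 (95% interval -0.32 to 0.58). An antisense transcript, Kank4os, overlaps the gene, and since no strand setting is stated for the counting, reads of the pair cannot be told apart.

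Sec14l3 belongs to the SEC14-like proteins, which bind and carry lipids in a CRAL-TRIO pocket. Its fed AgRP libraries held 8.73, 19.2 and 9.54 CPM, its fasted ones 4.07, 3.16, 3.09 and 6.24 and its leptin-treated ones 2.68, 4.19, 3.44 and 5.50. Every fed library lay above the fasted and leptin-treated ones, which overlapped, and fed library 3 was about as high as the other fed libraries together. The mean was 12.5 ± 5.81 CPM (SD, n = 3) in fed, 4.14 ± 1.47 (n = 4) in fasted and 3.95 ± 1.20 (n = 4) in leptin-treated libraries. The fitted decrease with fasting was 3.02-fold (log2 fold change -1.59, SE 0.36), and without fed library 3 it was -1.13 on the log2 scale with an adjusted p of 0.112. Leaving out fasted library 1, 2 or 3 also ended that call, with adjusted p between 0.0723 and 0.0865. The leptin-against-fasted difference was -0.06 (95% interval -0.80 to 0.69). Leptin-treated libraries were 3.14-fold below fed ones (log2 fold change -1.65, SE 0.35, adjusted p = 0.0181), a call lost without fed library 3 (adjusted p = 0.0777) or leptin library 3 (adjusted p = 0.0578). POMC libraries held 5.61 and 6.51 CPM in fed, 10.4 and 7.07 in fasted and 9.55 and 6.05 in leptin-treated state, so both fasted libraries were above both fed ones, with a log2 fold change of 0.53 (95% interval -0.24 to 1.29) and no call. Leptin-treated AgRP libraries lay below leptin-treated POMC libraries (log2 fold change -0.98, adjusted p = 0.0893). Its relatives Sec14l2 and Sec14l4 are its neighbours on the chromosome, and reads that match several relatives may be divided among them.

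**Figure D2:**
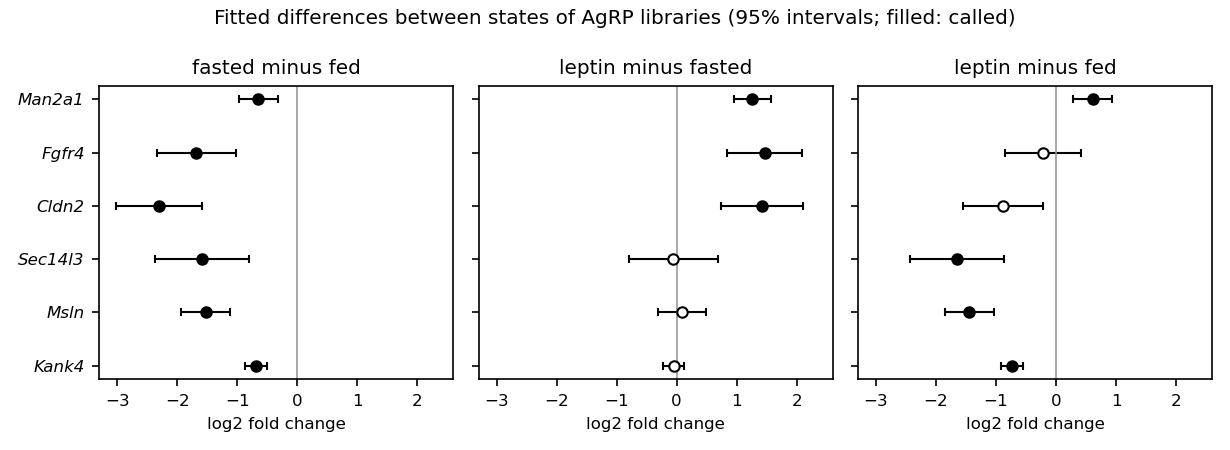
Fitted log2 fold changes (horizontal axis) of the 6 genes (vertical axis) between states of the AgRP libraries, with 95% intervals as whiskers and filled points for calls. In the leptin-minus-fasted panel Man2a1 (1.26), Fgfr4 (1.46) and Cldn2 (1.42) are filled and lie right of 0, and the other 3 intervals cross 0.

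Likeness of pattern over all 11 AgRP libraries is given as a description, because the libraries share states and the fasting contrast chose the genes. Pearson's r of log2(CPM + 0.5) was 0.952 for Msln with Kank4, 0.845 for Sec14l3 with Kank4 and 0.837 for Sec14l3 with Msln. It was 0.723 for Man2a1 with Fgfr4, 0.712 for Cldn2 with Msln, 0.592 for Man2a1 with Cldn2 and -0.01 for Man2a1 with Kank4. The tested genes most like Man2a1 were Irf9 (r = 0.969), Irgm2.2 (r = 0.962) and Lipg (r = 0.959). Irf9 is a transcription factor of the interferon response, and its log2 fold change was -0.68 with fasting and 1.13 with leptin. Those most like Fgfr4 were Gch1 (r = 0.935), Mccc1os (r = 0.925) and Khdrbs3 (r = 0.901), and those most like Cldn2 were Add3 (r = 0.961), Cd82 (r = 0.955) and Htr1f (r = 0.931). For Msln they were Klhl1 (r = 0.971), Ctnna2 (r = 0.966) and Kndc1 (r = 0.960), for Kank4 they were Ankrd6 (r = 0.977), Pygl (r = 0.969) and Trmt2b (r = 0.968), and for Sec14l3 they were Car10 (r = 0.958), Crocc (r = 0.935) and Poli (r = 0.932). None of these 9 genes most like Msln, Kank4 and Sec14l3 had a leptin adjusted p under 0.706.

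Between Cldn2 and the other members in order of decrease stood Socs3, the leptin-induced inhibitor of cytokine signaling, at place 2 (log2 fold change -1.98 with fasting and 3.73 with leptin). Places 6 to 10 were held by Umodl1 (-1.45 with fasting, -0.29 with leptin), Gbp9 (-1.45 and 0.69), Tnfrsf11b (-1.43 and 2.62), Nr0b1 (-1.35 and 1.27) and Lipg (-1.33 and 2.10). Of these 6 genes, Socs3, Tnfrsf11b, Nr0b1 and Lipg were called higher with leptin, and Umodl1 and Gbp9 were not.

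Sums of several marker lists for other cells differed between fed and fasted AgRP libraries in the direction of the 6 genes, among them those of ependymal cells, the ciliated cells that line the ventricle. The 10 ependymal markers summed to 76.7 to 79.3 CPM in fed, 63.9 to 64.9 in fasted and 60.0 to 65.0 in leptin-treated AgRP libraries, so fed libraries stood above the others. Over the 11 AgRP libraries their summed level had r = 0.947 with Kank4, 0.927 with Msln and 0.897 with Sec14l3, against 0.639 with Cldn2, 0.370 with Fgfr4 and -0.16 with Man2a1. These r values are given as a description. The fed and fasted libraries that chose the genes enter them, so a sum that is high in fed libraries follows the genes by construction. Rarres2 was the most abundant of the ependymal markers, with means of 34.4 CPM in fed, 29.1 in fasted and 26.3 in leptin-treated AgRP libraries. Hdc followed with 16.5, 14.7 and 14.3 CPM. Foxj1, the master regulator of motile cilia, had a mean of 11.9 CPM in fed, 8.29 in fasted and 8.58 in leptin-treated libraries. Ccdc153, Dynlrb2, Mia and Cfap126 had means under 1 CPM in each of these states. None of the 6 ependymal markers tested was called by edgeR or DESeq2 with fasting, 1 had an unadjusted p under 0.05, and all 6 had a negative log2 fold change (median -0.26). POMC libraries held 75.1 to 79.0 CPM of these markers in fed, 64.9 to 76.8 in fasted and 67.9 to 73.8 in leptin-treated state. The part of ependymal RNA in the results on the 6 genes was not tested.

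**Figure D3:**
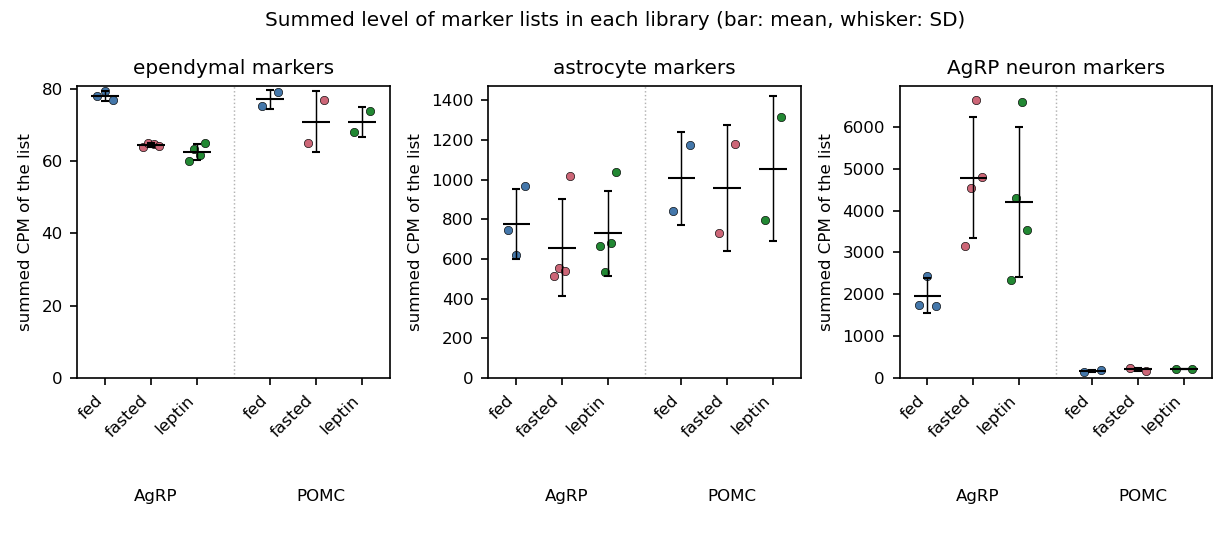
Summed level (CPM, vertical axis starting at 0) of the ependymal, astrocyte and AgRP neuron marker lists in every library, by line and state on the horizontal axis, with points for libraries, bars for means and whiskers for SD. Ependymal markers are at 76.7 to 79.3 CPM in fed AgRP libraries and at 65.0 or less in all fasted and leptin-treated ones, while astrocyte markers overlap between states.

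The AgRP neuron markers went the other way, with sums of 1723 to 2443 CPM in fed, 3148 to 6650 in fasted and 2352 to 6603 in leptin-treated AgRP libraries. All 7 had a positive log2 fold change with fasting (median 0.66) and an unadjusted p under 0.05, of which edgeR called none, DESeq2 4 and edgeR with the replicate block 6. Their sum had r = -0.83 with Cldn2, -0.76 with Kank4, -0.72 with Msln, -0.58 with Sec14l3, -0.38 with Fgfr4 and -0.27 with Man2a1. These r values too are a description, since the libraries that chose the genes enter them. The part of a larger share of AgRP neuron RNA in the lower level of the 6 genes was not tested. Among the lists for other cells, Upk3b of mesothelial cells was at 0 in all libraries and Wt1 at no more than 0.0897 CPM. The 12 meningeal and mesothelial markers summed to 27.4 to 57.1 CPM in fed, 25.9 to 53.8 in fasted and 23.7 to 68.4 in leptin-treated AgRP libraries. Sums of choroid plexus markers were 111 to 186, 121 to 313 and 106 to 219 CPM, of tanycyte markers 147 to 226, 127 to 313 and 158 to 242, and of astrocyte markers 617 to 965, 515 to 1020 and 533 to 1036 in the same 3 states. Those of endothelial markers were 105 to 124, 70.2 to 167 and 113 to 136 CPM, of pericyte and smooth muscle markers 76.3 to 96.7, 62.9 to 83.3 and 70.0 to 102, and of pars tuberalis and pituitary markers 11.1 to 13.7, 8.63 to 22.0 and 11.7 to 17.9. Oligodendrocyte markers summed to 569 to 866, 500 to 789 and 500 to 867 CPM, microglia markers to 22.4 to 40.0, 15.9 to 37.7 and 17.9 to 36.1, and POMC neuron markers to 71.0 to 102, 67.3 to 88.1 and 68.7 to 106. Fasted and fed ranges overlapped for each of these 10 lists.

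Within the 3 same-numbered pairs of fed and fasted AgRP libraries, sums of some of these lists differed one way. Microglia markers went from 38.8 to 16.7, from 22.4 to 16.8 and from 40.0 to 37.7 CPM, oligodendrocyte markers from 782 to 527, from 569 to 500 and from 866 to 789, and pericyte and smooth muscle markers from 96.7 to 74.6, from 76.3 to 62.9 and from 95 to 63.8. Sums of pars tuberalis and pituitary markers were also lower and those of choroid plexus markers higher in the fasted library of all 3 pairs. The most abundant choroid plexus markers were Prlr (fed and fasted means of 95.04 and 104.58 CPM) and Kl (37.14 and 62.51). Means of Ttr and Otx2 were also higher in fasted AgRP libraries. Those of Folr1, Clic6, Kcnj13, Aqp1, Slc4a5 and Sostdc1 were lower, so the list did not rise as a whole. The median log2 fold change with fasting was -0.66 for microglia markers (4 of 4 tested negative), -0.36 for oligodendrocyte markers (7 of 8), -0.26 for pericyte and smooth muscle markers (6 of 8) and -0.24 for astrocyte markers (6 of 8). No marker of these lists was called lower without the replicate block by edgeR or DESeq2, and 2 microglia markers and 1 each of the oligodendrocyte, astrocyte, pericyte and endothelial lists were called lower with it. Over the 11 AgRP libraries Cldn2 had r = 0.721 with pericyte, 0.622 with oligodendrocyte and 0.621 with microglia markers, Man2a1 had 0.550 with pericyte markers and Sec14l3 had 0.544 with microglia markers. No support is drawn from these r values, since the libraries that chose the genes enter them. The part of RNA of these cells in the results on the 6 genes was not tested.

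Other genes of the members' families and pathways did not fall as groups. Of 29 tested genes of FGF receptor signaling, 4 were called higher and none lower with fasting, where 2.81% of all genes were called higher, and 3 were called lower and none higher with leptin, where 0.604% were called lower (median log2 fold change -0.00 and -0.04, against 0.02 and -0.01 over all genes). DESeq2 gave the same counts, and unadjusted p was under 0.05 for 8 and 7 of the 29. Fgf7, a secreted FGF, went from 0.638 ± 0.411 CPM in fed (SD, n = 3) to 4.98 ± 1.54 in fasted and 0.793 ± 0.289 in leptin-treated libraries (n = 4 each), with log2 fold changes of 2.91 and -2.62 (adjusted p = 0.00444 and 0.00504). Only its fasted libraries took it past the filter of a mean over 1 CPM. No support is drawn from its calls, which are among those counted for this list in both contrasts. The FGF signaling inhibitors Spry2 (0.85 and -0.54) and Spry4 (0.99 and -0.56) rose with fasting and fell with leptin. Kl, the klotho coreceptor, which is also on the choroid plexus list, rose with fasting (0.76, adjusted p = 0.0135), and its leptin value of -0.44 had an adjusted p of 0.175. Spred1, the list's most abundant gene, was not called in either contrast (-0.06 and 0.46).

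Of 32 tested N-glycan processing genes, 2 were called higher with fasting and 2 with leptin, where 2.81% and 1.19% of all genes were, and neither edgeR nor DESeq2 called any lower, apart from B4galt1 with leptin under the replicate block (unadjusted p under 0.05 for 8 and 4 of the 32, median log2 fold change 0.03 and -0.01). Edem2 (1.06, adjusted p = 0.00235) and B4galt1 (0.86, adjusted p = 0.0388), a protein of glycoprotein degradation and a galactosyltransferase, rose with fasting. The mannosidases Man1a (0.93, adjusted p = 0.0288) and Man1c1 (0.54, adjusted p = 0.00899), which act before Man2a1 on the glycan, rose with leptin. Man2a2, the close relative of Man2a1 and the most abundant gene of the list, was at 285 ± 28.8 CPM in fed, 292 ± 17.2 in fasted and 282 ± 11.8 in leptin-treated libraries and was not called (0.04 and -0.05).

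Of 27 tested adhesion partners of KANK proteins, Vcl, the talin binding protein vinculin, rose with fasting (0.85, adjusted p = 0.00160) and fell with leptin (-0.51, adjusted p = 0.0163). Itga6, an integrin subunit, rose with leptin (1.11, adjusted p = 0.00769). Ywhaz, the most abundant gene of that list, was not called (0.16 and -0.03), and edgeR called no other gene of it with fasting or leptin except 1 lower with fasting under the replicate block (Tln2, a talin, named here after its values were seen). Of 14 tested SEC14-like and CRAL-TRIO genes, Sec14l1 rose with fasting (0.68, adjusted p = 0.00202) and its leptin value of -0.39 was under the fold limit. With the replicate block 1 further gene of that list was called lower with fasting (Rlbp1, named here after its values were seen). Prune2, the most abundant there, was not called (-0.05 and 0.03). Of 16 tested claudin and tight junction genes, edgeR and DESeq2 called none with fasting or leptin, with unadjusted p under 0.05 for 1 with fasting and none with leptin, and Cldn12, the most abundant, had 0.28 and -0.00. All 4 relatives and ligands of mesothelin on the list were below the filter. The median log2 fold changes with fasting and leptin were -0.01 and -0.02 for the KANK partners, 0.09 and -0.01 for the SEC14-like genes and -0.12 and 0.09 for the claudin list. In POMC libraries neither tool called a gene of these lists with fasting or leptin, and at most 1 gene of a list had an unadjusted p under 0.05.

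Some peaks of accessible chromatin near the 6 genes were called with fasting, in both directions and less often than over all tested peaks. Within 100 kb of the start sites lay 102 of 123721 peaks, of which 82 passed the filter of a mean over 1 CPM. With fasting 6 of the 82 opened, where 19% of 102237 tested peaks did, and 5 closed, where 8.36% did. Both counts lay under the share over all tested peaks, so no trait of the 6 genes is read from them. The 5 closed peaks lay near Cldn2, Kank4 and Man2a1, and the 6 opened ones near Msln and Sec14l3. With the replicate number as a block 9 opened, where 21051 of all tested peaks did, and 1 each lay near Cldn2, Kank4 and Man2a1. None near Fgfr4 was called. These are other libraries and another assay than the ones that chose the genes.

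The peak in an intron of Morc4, 59.2 kb past the start of Cldn2 (chrX:139859296-139860691), had 30.8 and 21.3 CPM in fed, 15.2 and 12.2 in fasted and 12.7 and 11.4 in leptin-treated libraries. Fasted and leptin-treated libraries were all below the fed ones (fasting log2 fold change -0.92, SE 0.26, adjusted p = 0.0123). Its centre is the Cldn2 sequence printed above. The intronic Kank4 peak at 45.3 kb (chr4:98771898-98772639) fell from 15.0 and 10.2 CPM to 2.8 and 2.12 and had 2.43 and 3.79 after leptin (fasting log2 fold change -2.35, SE 0.36, adjusted p = 0.000185). Of the 5 closed peaks it had the largest fold, and its centre is the Kank4 sequence printed above. A smaller peak at 20.7 kb, in an intron of Kank4 and of Kank4os (chr4:98796459-98797127), had 5.34 and 2.67 CPM in fed, 1.34 and 1.99 in fasted and 1.53 and 1.79 in leptin-treated libraries (log2 fold change -1.23, SE 0.45, adjusted p = 0.0485). The intronic Man2a1 peak at 43.0 kb (chr17:64643413-64643958) had 13.5 and 11.0 CPM in fed, 4.33 and 5.41 in fasted and 3.96 and 3.74 in leptin-treated libraries (log2 fold change -1.33, SE 0.31, adjusted p = 0.00453). Upstream of Man2a1, the peak at -62.2 kb in an intron of AU016765 (chr17:64538219-64538910) had 15.1 and 12.5, 6.63 and 3.92, and 2.50 and 3.07 CPM in the same states (log2 fold change -1.38, SE 0.33, adjusted p = 0.00493). At all 5 peaks the leptin-treated libraries were below the fed ones.

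The opened peaks near Msln and Sec14l3 went against the direction of those genes' RNA. The Msln peak at 51.4 kb, printed above by its centre (chr17:25702743-25703167, between genes), had 0.869 and 2.6 CPM in fed, 14.1 and 13.1 in fasted and 13.3 and 11.0 in leptin-treated libraries (log2 fold change 2.87, SE 0.39, adjusted p = 6.5e-05). Those at 89.9 kb (chr17:25664043-25664913, between genes) and -60.9 kb (chr17:25815136-25815409, an intron of Fbxl16 and of Gm26694) had log2 fold changes of 2.81 and 1.49. The Sec14l3 peak at -29.2 kb in an intron of Sec14l4 (chr11:4035227-4036132) had 3.85 and 2.16 CPM in fed, 19.3 and 17.5 in fasted and 10.7 and 9.20 in leptin-treated libraries (log2 fold change 2.66, SE 0.34, adjusted p = 4e-05). Those at 37.2 kb (chr11:4101883-4102244, an intron of Sec14l2) and 77.7 kb (chr11:4142434-4142633, an exon of Ccdc157) had log2 fold changes of 2.26 and 1.71. At all 6 peaks both fasted and both leptin-treated libraries were above both fed ones. Other genes lie closer to several of these peaks than Msln or Sec14l3 does, and no peak was assigned to a gene by anything but distance.

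Start-site peaks were not called. The Man2a1 start-site peak (chr17:64600343-64602423) had 49.0 and 58.2 CPM in fed, 41.3 and 41.7 in fasted and 44.8 and 36.5 in leptin-treated libraries (fasting log2 fold change -0.37, adjusted p = 0.0968). The Fgfr4 start-site peak (chr13:55152525-55153432) had 6.83 and 4.90, 3.70 and 4.17, and 4.44 and 6.64 CPM (log2 fold change -0.56, adjusted p = 0.245). At both peaks the fed libraries were above the fasted ones, and at the Fgfr4 peak the leptin-treated ones lay above the fasted ones and overlapped the fed ones. The 2 Kank4 peaks at its start were below the filter, and Cldn2, Msln and Sec14l3 had no peak within 1 kb of theirs.

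With leptin against fasted, edgeR and DESeq2 called none of the 82 peaks, where edgeR opened 1.44% and closed 0.306% of all tested peaks. Unadjusted p was under 0.05 for 4 peaks that were higher and 7 that were lower. Leptin-treated against fed libraries gave 14 opened peaks of the 82, where 23.7% of all did, and 10 closed ones, where 13% did. Near Man2a1 the closed ones were the 2 closed by fasting, and of the 3 opened there the one with the smallest adjusted p, an intronic peak at 8.79 kb (chr17:64609111-64609936), had 3.23 and 3.03 CPM in fed, 3.82 and 5.17 in fasted and 8.26 and 8.81 in leptin-treated libraries (log2 fold change 1.45, adjusted p = 0.00294). Within their own genes, the Msln peak at 2.59 kb (log2 fold change -1.28, adjusted p = 0.00526) and the Sec14l3 peak at 5.07 kb (log2 fold change -1.21, adjusted p = 0.00157) were lower after leptin than in fed mice. In the latter the fed libraries had 18.7 and 19.5 CPM, the fasted ones 13.9 and 12.8 and the leptin-treated ones 8.05 and 8.48.

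**Figure D4:**
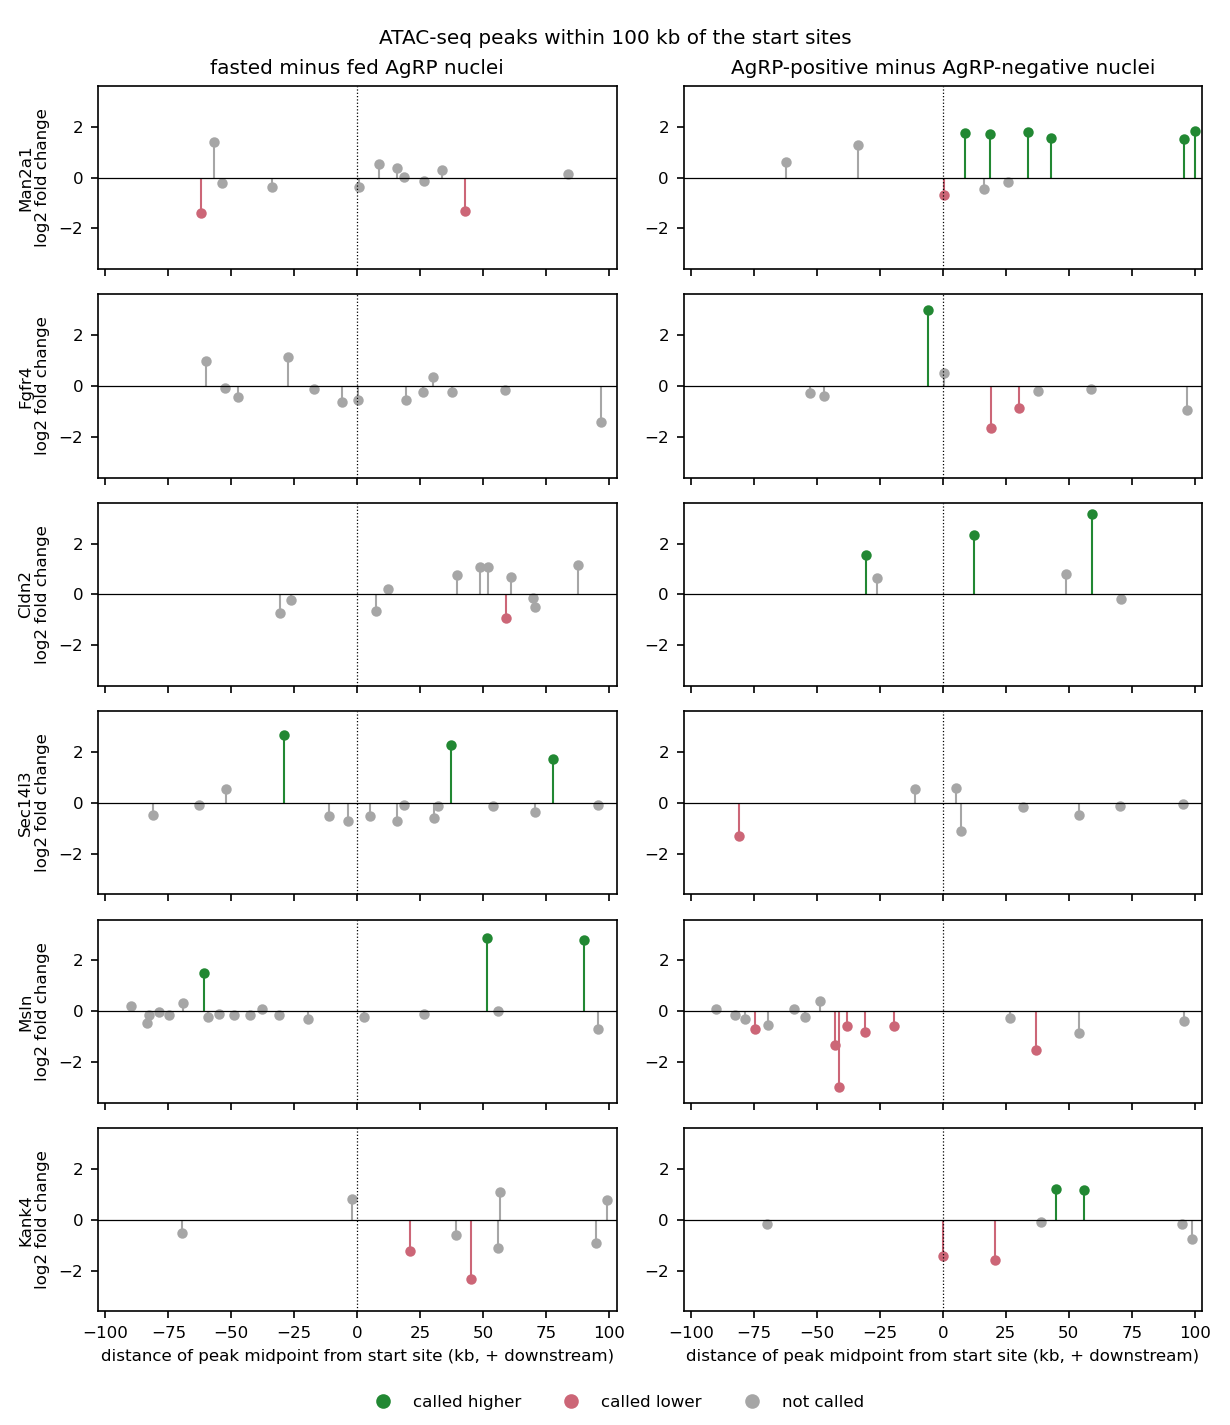
Log2 fold change (vertical axis) of each tested ATAC-seq peak by its distance in kb from the start site of each gene (horizontal axis, positive downstream), for fasted minus fed (left) and AgRP-positive minus AgRP-negative nuclei (right). Colored points are called peaks, and the 6 peaks called higher with fasting lie near Sec14l3 and Msln while the 5 called lower lie near Man2a1, Cldn2 and Kank4.

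Most peaks that differed between the nuclear gates were more open in AgRP-positive nuclei near Man2a1 and Cldn2 and more open in AgRP-negative nuclei near Msln. Near the 6 genes lay 60 of 67472 peaks of that set, of which 59 were tested. More open in AgRP-positive nuclei were 12 of the 59, where 24.1% of 66560 tested peaks were, and more open in AgRP-negative nuclei were 13, where 15.3% were. That fit did not use the pooled samples that the gates share. With the replicate number as a block the counts were also 12 and 13, where 16713 and 10812 of all tested peaks were called. Of the 12, 6 lay near Man2a1, 3 near Cldn2, 2 near Kank4 and 1 near Fgfr4, and of the 13, 7 lay near Msln, 2 near Kank4, 2 near Fgfr4, 1 near Man2a1 and 1 near Sec14l3. The 7 peaks near Msln were 19.5 to 74.6 kb from its start and 78 to 619 bases from the start of another gene. Here too, peaks were assigned by distance alone. The Cldn2 peak at 59.2 kb had 0.862 and 2.84 CPM in negative and 15.7 and 17.9 in positive libraries (log2 fold change 3.16, SE 0.32, adjusted p = 2.26e-21). The gates did not overlap there. Cldn2 peaks at 12.3 kb (2.35) and -30.6 kb (1.54) were also more open in AgRP-positive nuclei.

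Near Man2a1 the peaks at 18.6 and 99.9 kb, both in its introns, had log2 fold changes of 1.72 and 1.81 toward AgRP-positive nuclei. Its start-site peak was lower there, with 84.8 and 70.7 CPM in AgRP-negative and 50.1 and 47.9 in AgRP-positive libraries (log2 fold change -0.67, adjusted p = 1.56e-06). The Kank4 start-site peak was also lower in AgRP-positive nuclei (-1.43), as was the one at 20.6 kb (-1.57), while the one at 45.1 kb (1.19) was higher. Of the Msln peaks the one at -41.4 kb, in exons of Metrn and Gm26694, had 8.0 and 10.5 CPM in negative and 0.622 and 1.67 in positive libraries (log2 fold change -2.99, adjusted p = 1.26e-12). The 1 called Sec14l3 peak, at -81.1 kb in an exon of Gal3st1, had a log2 fold change of -1.30. No peak near Msln or Sec14l3 was called more open in AgRP-positive nuclei. Of the 5 peaks closed by fasting, those of Cldn2 at 59.2 kb, Kank4 at 45.3 kb and Man2a1 at 43.0 kb overlapped peaks more open in AgRP-positive nuclei, and that of Kank4 at 20.7 kb overlapped one more open in AgRP-negative nuclei. That of Man2a1 at -62.2 kb overlapped a peak not called between the gates, and the 6 peaks opened by fasting overlapped no peak of the gate set.

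Motif letters were counted on both strands of the central 300 bases of peaks. A STAT site was in 14 of the 82 tested peaks near the genes and in 12.4% of all tested peaks, an IRF-type site in 10 (9.76% of all), an AP-1 site in 19 (32.2% of all) and a FoxO site in 5 (4.54% of all). An ACANNNTGT match (the glucocorticoid receptor core) was in 5 (13.2% of all) and a TGACGTCA site (the cyclic AMP response element) in none (0.765% of all). In the gate set the shares of all peaks were 11.1% for STAT and 10.7% for the glucocorticoid receptor core, and 9 and 1 of the 59 peaks had them. The RefSeq promoters (250 bases before to 50 after the start) of the 5 genes with an entry, all but Msln, held none of the 6 motifs, which were in 8.3% (STAT), 8.56% (IRF-type), 7.81% (AP-1), 1.79% (cyclic AMP response element), 3.65% (FoxO) and 6.85% (glucocorticoid receptor core) of 32851 promoters. These letter matches do not show that a factor was bound.

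Binding of IRF3, a transcription factor of the interferon response, was measured by CUT&RUN in AgRP nuclei of mice that express the active IRF3-2D form. This was 1 sample, and its peak list was assigned to it as the only one made with SEACR. Within 100 kb of the start sites lay 8 IRF3 peaks for Msln, 4 for Man2a1, 4 for Sec14l3, 3 for Fgfr4, 2 for Cldn2 and 1 for Kank4, where 21938 protein-coding genes had a median of 3 (quartiles 1 and 5). The nearest to a start site was at Man2a1, at -25 bases, and an IRF3 peak overlapped the start-site ATAC-seq peak there. None of the 11 peaks called with fasting overlapped an IRF3 peak.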

How the data were processed

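Members, pathway lists, marker lists and motifs were chosen with earlier results of these data known. Raw gene counts (17 RNA libraries) and counts per merged ATAC-seq peak (10 libraries) were used as the authors deposited them. The authors ran HISAT2 on the TRAP reads (mm10) and featureCounts on their primary alignments, with a GRCm38 annotation changed to reduce overlap of transcripts. ATAC-seq reads were aligned with Bowtie2, duplicates were removed with SAMtools, peaks were called with MACS2 and counts were made with BEDtools. The IRF3 CUT&RUN list gives total signal per peak as SEACR writes it, deposited without stated normalization, and only its positions were used. Tool versions are not given in the sources used here. All per-sample columns of the tables used were mapped to a sample.

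Counts were fitted with edgeR 4.0.16 (R 4.3.3, limma 3.58.1) by quasi-likelihood with TMM scaling, over features with a mean above 1 CPM. The 3 states of a line were fitted in 1 model, and the lines were compared in 1 model of all 17 RNA libraries. Benjamini-Hochberg adjustment covered all features tested, and a call needed an adjusted p under 0.05 and a log2 change of more than 0.5 in size. The SE is the absolute log2 fold change divided by the square root of F. P-values measure the spread between pooled samples. DESeq2 1.42.0 was an alternative, beside other scalings, no filter, each library left out and the replicate number as a block. The fit was tested on simulated data. Positions come from GENCODE vM21 and sequences from RefSeq GRCm38.p6, read with samtools 1.23.1, Python 3.11.15, pandas 2.3.3 and numpy 2.4.6.

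Deviations from group means of same-numbered libraries correlated at 0.536 to 0.814 in AgRP RNA and 0.733 to 0.770 in POMC RNA. Between other numbers the range was -0.642 to 0.642 in AgRP RNA (median -0.236, against 0.7 for same numbers), which overlaps the former. In POMC RNA it was -0.770 to -0.733, the mirror image that 2 libraries per state give by construction. Same numbers were therefore read as possible pairs, from the data and not from the labels. The main fits used state alone, and the replicate block was an alternative. Genes were named by rule: the 6 members, genes of a pathway list called with fasting or leptin and its most abundant gene, the 10 largest decreases, and the 3 tested genes most correlated with each member. Peaks were named by rule: those within 1 kb of a start and up to 3 called ones per gene and contrast with the smallest adjusted p. Not every peak of the leptin-against-fed contrast that the rule selects is printed, and 1 accessible region is not reported here. ARC RNA, CTCF and IgG samples were not analysed here.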

Additional observations from a re-analysis of the deposited data

Results flagged for a closer look

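Of 12 groups of 4 AgRP libraries examined (6 genes, fasted and leptin-treated), 1 held a library far from the others by Dixon's ratio of gap to range at its 95% critical value. In it the highest leptin-treated library had 1.29 CPM of Msln, and the other 3 lay between 1.19 and 1.20. Chance gives about 1 such group in 20.

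The fasted and fed libraries of Sec14l3 stood in opposite order in the 2 lines. Its mean in fasted over fed libraries was 0.332 in AgRP neurons and 1.44 in POMC neurons, with no overlap of the states in either line. Separation of 2 against 2 libraries in some order is frequent without any change, and its share over all genes was not counted. The POMC difference was not called (log2 fold change 0.53, 95% interval -0.24 to 1.29). For Fgfr4 the ratios were 0.312 and 1.13, and the POMC value rests on 14 and 11 counts in fasted against 16 and 18 in fed libraries, under the filter, so no change is shown there. Neither difference was tested, and the AgRP libraries chose the genes.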

How the results depend on the processing

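With any single library left out, 4 to 6 members were lower with fasting, 1 to 3 higher with leptin and 2 to 3 lower than fed after leptin. Between leptin-treated lines 1 to 4 were called (3 with all libraries), with 1 left without POMC leptin library 1 (Fgfr4) and 2 in leptin-treated libraries alone. Near members 2 to 8 peaks were closed by fasting, 4 to 7 opened, 8 to 10 more open in AgRP-positive and 6 to 14 in AgRP-negative nuclei. Within 50 kb 3 peaks were closed and 2 opened by fasting, and within 200 kb 9 were closed, 19 opened, 19 more open in AgRP-positive and 25 in AgRP-negative nuclei, where more peaks enter by construction. DESeq2 called 8 and 8 in the gates. Over all these counts, 51 with a library left out and 68 under other settings stayed within 1.5 times the count reported, and 9 and 8 did not.

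With the replicate block 6 members were lower with fasting, 3 higher with leptin and 4 lower than fed after leptin (Cldn2 added). Over all 13401 genes tested the block called 346, 239 and 431 in these directions, against 145, 160 and 228 without it. In ATAC-seq of the states the numbers did not pair the libraries (correlations of -0.00228 to 0.165), and the block gave 1 peak opened by leptin, 6 closed by fasting and 9 opened by fasting, of which 1 each lay near Cldn2, Kank4 and Man2a1. Over all 102237 tested peaks the block gave 2353, 10194 and 21051. Across lines the leptin-treated libraries share only a number, and the block gave Sec14l3 -1.21 (adjusted p = 0.0270). It changed no other call of a member.

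Values near 0 changed sign when a library was left out. Their log2 fold changes ran from -0.26 to 0.23 for Sec14l3 and -0.00043 to 0.14 for Msln with leptin in AgRP libraries, and from -0.46 to 0.10 for Fgfr4 after leptin against fed. In POMC libraries they ran with fasting from -0.058 to 0.30 for Kank4, -0.21 to 0.82 for Msln and -0.33 to 0.064 for Man2a1, and with leptin from -0.55 to 0.14 for Sec14l3 and -0.55 to 0.56 for Msln. Without the AgRP libraries numbered 4, chosen after their Slc1a2 level was seen, leptin gave 0.0126 for Sec14l3 and -0.0123 for Msln. Msln with leptin in POMC libraries was 0.0084 with the replicate block, 0.00026 by library size alone and 0.0023 by DESeq2. By library size alone the calls of Man2a1 with fasting (adjusted p = 0.0690) and against fed (adjusted p = 0.128) and of Cldn2 with leptin (adjusted p = 0.05001) were lost. The cause was not tested. Pairs of POMC and ATAC-seq libraries and the low counts of Fgfr4 and Cldn2 limit what can be detected.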
